A study of Penaeus vannamei with 6 samples.

Results

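Very long transcripts, of at least 8000 bases, were examined in a de novo assembly of the gill transcriptome of the whiteleg shrimp (Penaeus vannamei, or Litopenaeus vannamei). Where a component of the assembly, that is a group of transcripts built from overlapping sequence, held several such transcripts, only the longest was kept. This left 297 transcripts, from 614 of at least 8000 bases and from 341828 in the whole assembly (0.0869%). The choice used length alone and no measured level.

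The gills came from juvenile shrimp cultured in fresh water, brackish water or seawater, and each group had 2 mRNA libraries made from total RNA. The labels give no salinity in numbers, no age beyond the juvenile stage and no genotype or strain, and all 3 groups share the species, stage and tissue. According to the design text the libraries were made in triplicate, and 2 of each group were analysed here. The labels do not state that the 2 libraries of a group are separate animals or cultures. The p-values therefore reflect the spread between the libraries at hand, which may be technical.

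As background, the gill is the organ in which a shrimp exchanges gases and moves ions between haemolymph and water, and it carries much of the load when salinity changes. A very long messenger RNA usually means a very large protein, a long untranslated region, or both. In animals generally, the longest messages include those for giant muscle proteins, for the heavy chains of the dynein motors and for large proteins of the cell cortex and extracellular matrix. The transcript IDs of this assembly carry no gene name, and 0 of them matched the RefSeq gene table, so no function is given to any of the 297, and markers of gill cell types could not be checked. In a bulk sample, fewer cells of a type and less RNA per cell cannot be told apart.

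Levels were read as RPKM, reads divided by the length of the transcript in kilobases and scaled to the reads of the library, as the authors deposited them. Depth was 30152208 and 23195528 reads in the fresh water libraries, 37027007 and 35347475 in the brackish water libraries, and 16500257 and 33130083 in the seawater libraries. The libraries fell into 2 sets by the number of transcripts with reads. There were 207274 and 213853 in fresh water and 203824 in brackish water library 1, against 61478 in brackish water library 2 and 55464 and 72650 in seawater. The replicates of brackish water were thus on opposite sides of the gap. The median level over all 25901 transcripts tested, those with a mean of at least 1 RPKM, was 3.98 RPKM in brackish water library 1 and 0.923 RPKM in library 2. Calls and medians that rest on brackish water are given below without each of its libraries as well.

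The 297 transcripts ran from 8003 to 18699 bases, with a median of 9398 bases. The median was 259 bases over the whole assembly and 1336 bases over the transcripts tested. Of the 297, 114 had at least 10000 bases, 52 had at least 12000 and 15 had at least 15000. In 88 components the long transcript was the only form, and 15 components held more than 10 forms, with at most 20. The long form took a median of 51.7% of the reads of its component. It held as many reads as all other forms together, or more, in 159 components, and under 10% of the reads in 11. The median and the 159 include the 88 components with no other form, where the long form holds all reads by definition. How the authors' counting divided reads between forms that share sequence is unknown here.

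All 297 long transcripts had reads in all 6 libraries, against 89.2% of the transcripts tested and 10.5% of the whole assembly. The lowest count was 6 reads, in seawater library 1, and 215 of the 297 had at least 100 reads in every library, against 24.7% of the transcripts tested. At a given RPKM a longer transcript holds more reads. Counting alone gave the median long transcript an error between 2.58% (SD) in brackish water library 1 and 6.38% in seawater library 1.

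Most of the long transcripts were of low abundance. Their mean over the 6 libraries ran from 0.178 to 225 RPKM, with a median of 2.90 RPKM. There were 39 under 1 RPKM, 113 from 1 to 3 RPKM, 100 from 3 to 10 RPKM, 37 from 10 to 30 RPKM, 7 from 30 to 100 RPKM and 1 above 100 RPKM. The 39 under 1 RPKM fell below the filter, which left 258 in the test.

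The median level of the 297 was 3.85 and 4.62 RPKM in the fresh water libraries, 3.90 and 0.839 RPKM in the brackish water libraries, and 1.54 and 1.99 RPKM in the seawater libraries. Both fresh water libraries lay above both seawater libraries, and the brackish water libraries lay on either side of seawater. The same median over all transcripts tested was 3.82 and 4.65 RPKM in fresh water, 3.98 and 0.923 RPKM in brackish water, and 1.45 and 1.84 RPKM in seawater. The long transcripts thus moved between libraries much as the other tested transcripts did.

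**Figure D1:**
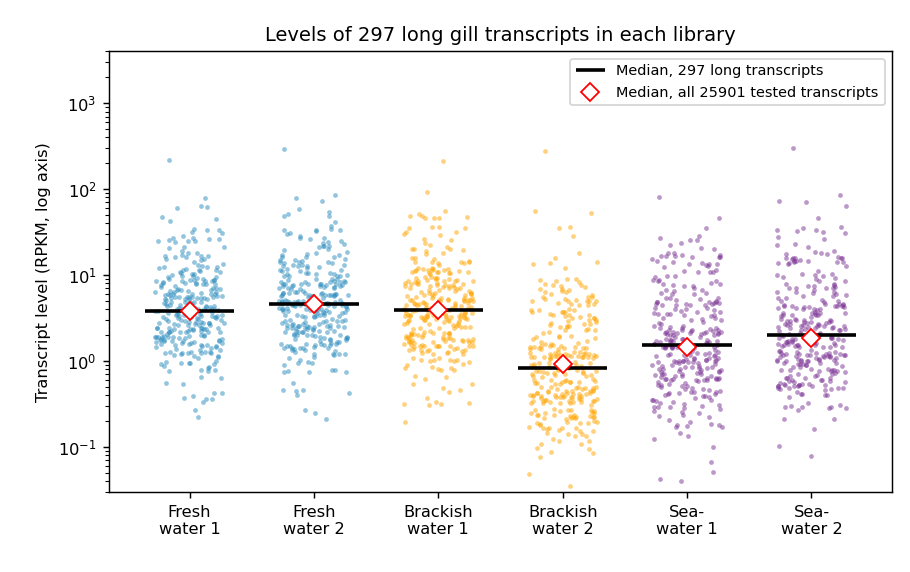
Level (RPKM, log axis) of each of the 297 long transcripts (points) in each of the 6 libraries, with their median (bar) and the median of all 25901 transcripts tested (open diamond). The bars run from 0.839 RPKM in brackish water library 2 to 4.62 RPKM in fresh water library 2, and in every library the diamond lies close to the bar.

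The long transcripts together took 2.39% and 2.80% of all reads in the fresh water libraries, 2.44% and 1.04% in the brackish water libraries, and 1.30% and 2.02% in the seawater libraries. The groups fresh water and seawater did not overlap. The means were 2.59% ± 0.285 in fresh water, 1.74% ± 0.990 in brackish water and 1.66% ± 0.512 in seawater (SD, n = 2 each). The difference of 0.931 percentage points between fresh water and seawater had a two-sided exact permutation p of 0.33, the smallest that 2 against 2 libraries can give. The difference between brackish water and seawater was 0.0775 percentage points (exact permutation p = 1) and that between fresh and brackish water 0.853 percentage points (exact permutation p = 0.667). Without brackish water library 2 these differences were 0.777 and 0.153 percentage points, and without library 1 they were -0.623 and 1.55. With 3 such tests in the family, no adjusted value can pass 0.05.

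Among the 5 longest transcripts, comp250110_c0_seq1, the longest at 18699 bases, stood at 0.919 and 1.21 RPKM in fresh water, 1.31 and 0.549 RPKM in brackish water, and 2.20 and 0.696 RPKM in seawater. Seawater library 1 was the highest and brackish water library 2 the lowest, and fresh water lay between the seawater libraries. For comp250040_c0_seq3, of 17836 bases, the levels were 4.84 and 3.73 RPKM in fresh water, 5.05 and 2.76 RPKM in brackish water, and 9.85 and 4.28 RPKM in seawater. Seawater library 1 was the highest, and the groups overlapped. The third, comp250115_c0_seq6 of 17471 bases, had 6.72 and 8.25 RPKM in fresh water, 7.25 and 2.17 RPKM in brackish water, and 6.24 and 4.67 RPKM in seawater. Both fresh water libraries were above both seawater libraries, by a margin smaller than the gap between replicates.

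The transcript comp249354_c0_seq4, of 17191 bases, had 2.68 and 3.58 RPKM in fresh water, 3.46 and 0.541 RPKM in brackish water, and 0.984 and 1.45 RPKM in seawater. Brackish water library 2 was the lowest, as in 242 of the 297, and the 2 seawater libraries came next. The fifth, comp250133_c0_seq3 of 17123 bases, had 7.74 and 6.33 RPKM in fresh water, 8.20 and 6.01 RPKM in brackish water, and 10.8 and 13.8 RPKM in seawater. Here both seawater libraries were the highest. None of the 5 longest passed the limma test in any of the 3 comparisons, and DESeq2 on recovered reads gave comp250133_c0_seq3 a log2 fold change of -1.98 between fresh water and seawater (adjusted p = 0.0264).

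The most abundant long transcript, comp250059_c0_seq29 of 8450 bases, had 219 and 294 RPKM in fresh water, 213 and 280 RPKM in brackish water, and 46.6 and 298 RPKM in seawater. The other 5 libraries were close together, and seawater library 1, the shallowest library, was far below them. This transcript held 22.7% of all reads in the 297 long transcripts in brackish water library 2 and 3.03% in seawater library 1. The 5 most abundant together held 18.8% and 18.8% of those reads in the fresh water libraries, 17.2% and 37.8% in the brackish water libraries, and 13.4% and 24.8% in the seawater libraries.

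In another 2 of the 5 most abundant, seawater library 1 was again the lowest. The transcript comp246437_c1_seq9, of 13100 bases, had 78.6 and 79.1 RPKM in fresh water, 56.0 and 52.6 RPKM in brackish water, and 23.9 and 86.5 RPKM in seawater. Levels of comp249145_c0_seq2, of 8028 bases, were 62.3 and 59.5 RPKM in fresh water, 51.2 and 55.7 RPKM in brackish water, and 20.8 and 73.0 RPKM in seawater. In both, the 2 seawater libraries enclosed all 4 others, so no pair with seawater was apart.

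The remaining 2 of the 5 went opposite ways. The transcript comp248935_c0_seq1, of 8882 bases, had 59.8 and 53.6 RPKM in fresh water, 45.9 and 34.9 RPKM in brackish water, and 80.9 and 71.8 RPKM in seawater. All 3 groups were apart, with seawater highest. By contrast comp249836_c1_seq2, of 9314 bases, had 63.1 and 84.7 RPKM in fresh water, 91.8 and 13.6 RPKM in brackish water, and 16.1 and 15.4 RPKM in seawater. Its brackish water library 1 lay above fresh water and its library 2 below seawater.

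**Figure D2:**
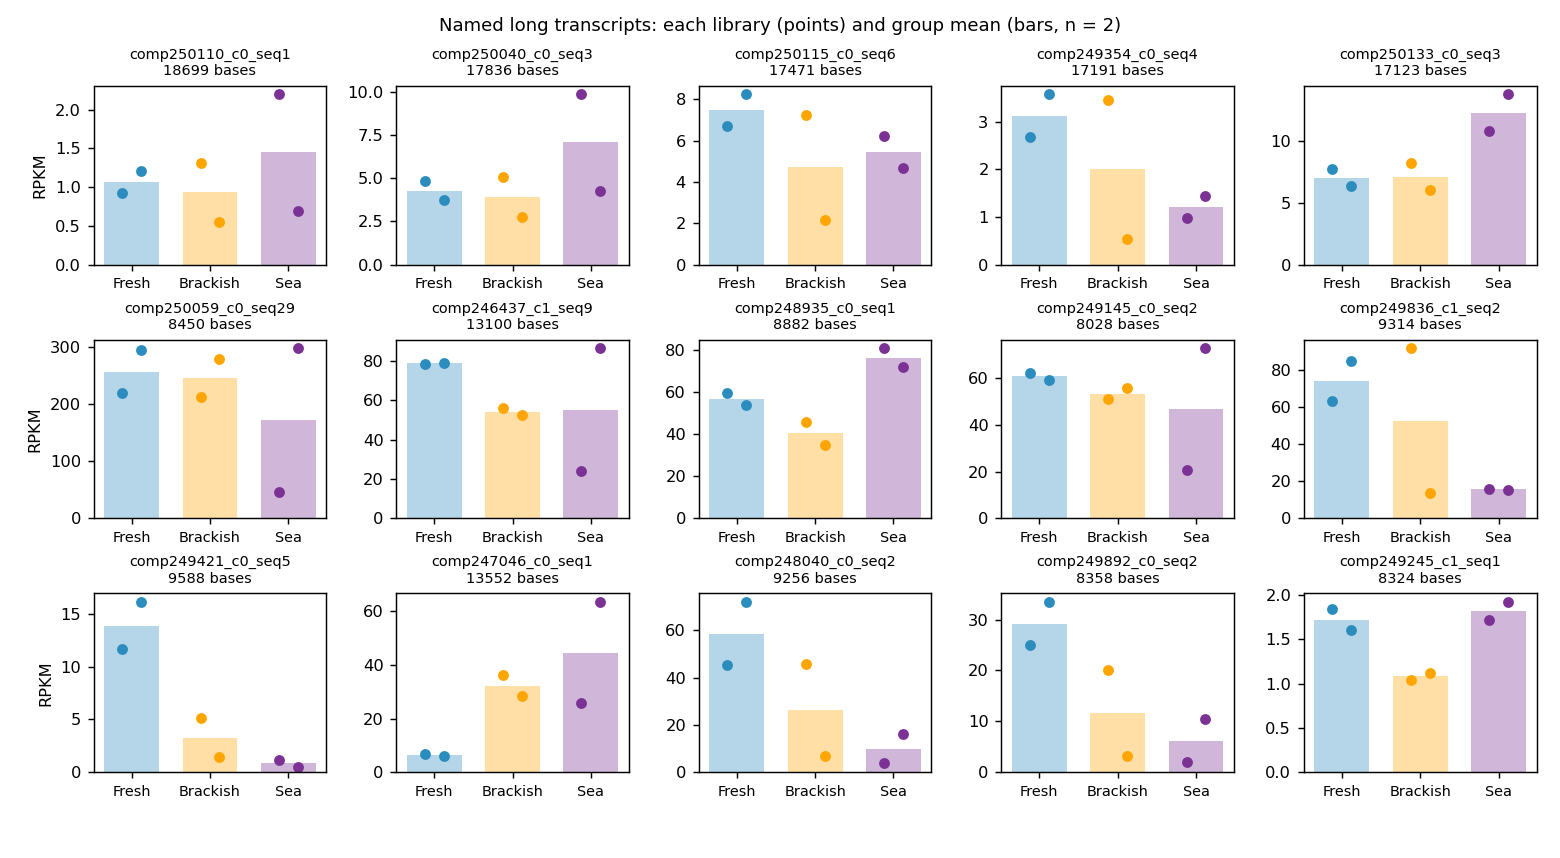
Level (RPKM, each panel with its own axis from 0) of 15 long transcripts by group, with each library as a point (replicate 1 left, replicate 2 right) and the group mean as a bar (n = 2). The top row holds the 5 longest, the middle row the 5 most abundant, and the bottom row comp249421_c0_seq5, highest in fresh water, comp247046_c0_seq1, lowest in fresh water, 2 with a large range over the libraries and 1 with the smallest.

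Fresh water against seawater, the widest contrast of salinity in the study, gave 1 call among the long transcripts. The transcript comp249421_c0_seq5, of 9588 bases, had 11.6 and 16.1 RPKM in fresh water, 5.13 and 1.40 RPKM in brackish water, and 1.16 and 0.488 RPKM in seawater. The 3 groups did not overlap, and the levels followed the order of the waters. It rose in fresh water by 3.04 on the log2(RPKM + 1) scale (SE 0.82, limma with Benjamini-Hochberg adjustment, adjusted p = 0.0418, higher in both fresh water libraries than in both seawater libraries). A log2(RPKM + 1) value understates the change of a transcript of low RPKM.

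The reads behind this call were 3364 and 3590 in fresh water, 1821 and 476 in brackish water, and 184 and 155 in seawater. The transcript held 99.3% of the reads of its component, whose only other form, of 314 bases, had 30 reads or fewer in each library. The call held in 8 of 18 alternatives and was lost in 10, among them RPKM divided by TMM factors (adjusted p = 0.0613), edgeR on recovered reads (adjusted p = 0.0729) and every fit without a fresh water or seawater library. The log2 fold change was positive in all 18, from 1.69 to 4.0, with adjusted p from 0.00248 to 0.913.

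Of the 258 long transcripts tested, this 1 was called, against 951 of all 25901 transcripts tested (3.67%), and all calls with a higher level in fresh water came to 3.05% of them. At an unadjusted p under 0.05 there were 21 long transcripts, 20 of them higher in fresh water, against 27.3% of all transcripts tested. The count changed with the libraries in the fit. With the fresh water and seawater libraries alone, limma called 85 of the 258, with 83 higher and 2 lower in fresh water, against 40.0% of all transcripts tested. Without brackish water library 1 the count was 88, against 40.4% of all transcripts tested. Without library 2 it was 84, against 39.8%. The groups fresh water and seawater keep 2 libraries each in these fits. DESeq2 on the recovered reads called 29, with 10 higher and 19 lower in fresh water, against 27.2% of all transcripts tested. Those calls over all transcripts tested had the other majority, with 4014 higher and 3031 lower in fresh water. By length, that majority lay in the classes under 2000 bases. From 2000 to under 4000 bases 670 were higher and 719 lower, and from 4000 to under 8000 bases 197 were higher and 223 lower. The lower majority was thus shared with the next shorter classes.

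Apart from any call, most long transcripts had higher RPKM in fresh water, the water whose libraries also had reads for 207274 and 213853 transcripts, against 55464 and 72650 in seawater. The part of that difference between libraries in the values was not tested. In 233 of the 297, both fresh water libraries were above both seawater libraries (78.5%), against 65.8% of all transcripts tested. In 17 both were below (5.72%), against 11.5%. The median ratio of mean RPKM was 2.13 over the 297 and 2.19 over all transcripts tested. Of the 297, 162 were more than 2-fold higher in fresh water (54.5%), against 52.1% of all transcripts tested. There were 8 more than 2-fold lower (2.69%), against 9.33%. The 297 include the 39 under the filter, which the transcripts tested leave out. Over the 258 tested, the median ratio was 2.05, with 136 more than 2-fold higher (52.7%) and 8 lower (3.10%). The median log2 fold change of the 258 tested was 0.79, beside 0.89 over all transcripts tested. After division of RPKM by TMM factors, which set the bulk of transcripts equal between libraries, it was -0.051, beside 0.078. The higher level in fresh water was thus shared with the transcripts tested as a whole, and relative to their median the long transcripts were slightly lower on both scales. The TMM factors were 1.55 and 1.87 for fresh water, 1.54 and 0.391 for brackish water, and 0.655 and 0.874 for seawater.

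**Figure D3:**
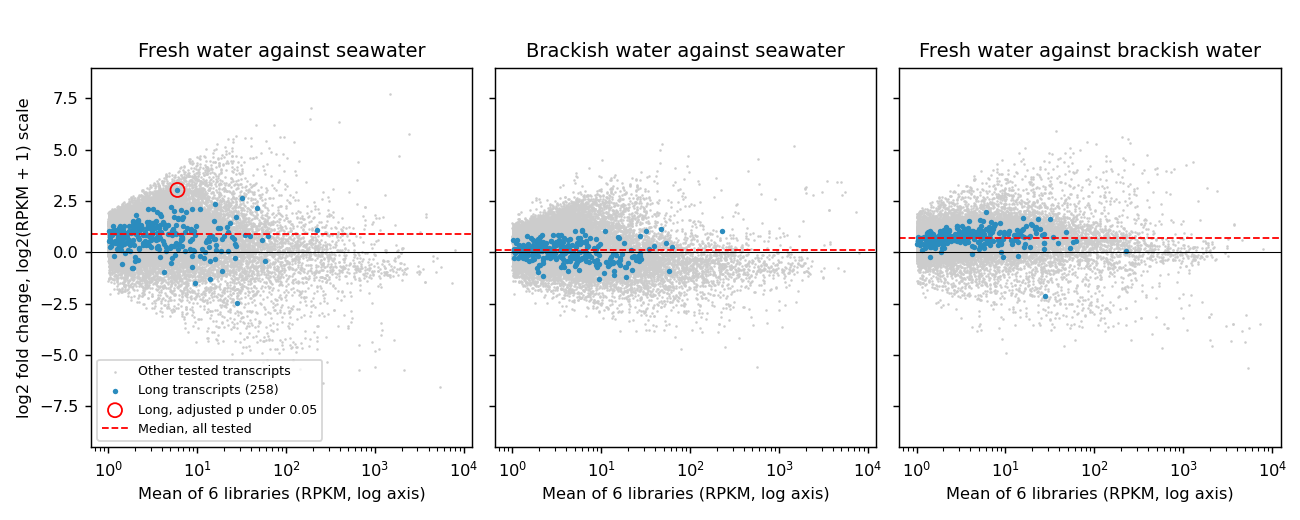
Log2 fold change on the log2(RPKM + 1) scale against the mean of the 6 libraries (RPKM, log axis) for the 258 long transcripts tested (blue) and the other transcripts tested (grey), with the median of all tested as a dashed line. The long transcripts lie around the line in each comparison, and the 1 circled is comp249421_c0_seq5. The line at 0.89 for fresh water against seawater is at 0.078 after division by TMM factors.

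The lowest log2 fold change between fresh water and seawater was that of comp247046_c0_seq1, of 13552 bases and the only form of its component, which was singled out after its values were seen. It had 6.73 and 6.22 RPKM in fresh water, 36.1 and 28.4 RPKM in brackish water, and 25.7 and 63.5 RPKM in seawater. Both fresh water libraries were below all 4 others, and brackish water overlapped with seawater. The log2 fold change was -2.47 (limma adjusted p = 0.098), which missed the threshold. With the fresh water and seawater libraries alone the adjusted p was 0.0251, and DESeq2 on recovered reads gave -3.88 (adjusted p = 2.06e-05). The value was negative in all 18 alternatives, from -3.97 to -1.84, with adjusted p from 2.06e-05 to 0.913, the TMM and quantile scalings included.

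A second transcript, comp246228_c0_seq10 of 11140 bases, also singled out afterwards, was the other of the 2 called lower in fresh water with those 4 libraries alone. It had 5.98 and 4.52 RPKM in fresh water, 6.56 and 5.89 RPKM in brackish water, and 17.9 and 15.8 RPKM in seawater. Both seawater libraries were far above the other 4. The log2 fold change between fresh water and seawater was -1.52 and missed the threshold with all 6 libraries (limma adjusted p = 0.261). The adjusted p was 0.0301 with those 4 libraries alone, and DESeq2 gave 0.00402. The 17 long transcripts with both fresh water libraries below both seawater libraries had lengths from 8008 to 17123 bases and a median mean of 8.82 RPKM, and 5 of them had at least 12000 bases.

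In the authors' deposited table for fresh water and seawater, which lists only transcripts with an unadjusted p-value under 0.05, 104 of the 297 appeared, 101 higher and 3 lower in fresh water. By the log2 fold change of that table, 89 of them differed more than 2-fold, 87 higher and 2 lower. These were 29.97% of the 297, against 23.46% of all transcripts tested. Of all transcripts tested, 26.5% appear in the authors' deposited table, 6110 higher and 766 lower, so the direction was the common one.

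Brackish water against seawater gave no call among the 258 long transcripts by limma with all 6 libraries, and 0 at an unadjusted p under 0.05. Over all transcripts tested, 0.0734% were called and 6.43% had an unadjusted p under 0.05. The gap between replicates was wider in brackish water than in the other waters. For the 297, the ratio of library 2 to library 1 had a median of 0.221 in brackish water, with a range from 0.0262 to 3.63. The median ratio was 1.17 in fresh water, from 0.685 to 2.31, and 1.39 in seawater, from 0.0851 to 8.54.

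Each brackish water library went its own way against seawater. Library 1 was above both seawater libraries for 234 of the 297 long transcripts (78.8%), against 67.6% of all transcripts tested. Library 2 was below both seawater libraries for 248 (83.5%), against 59.8% of all transcripts tested, and above both for 4. As a result both brackish water libraries were above both seawater libraries for 4 long transcripts, against 14.8% of all transcripts tested, and below both for 21, against 11.0%. The median log2 fold change was 0.036 over the 258, beside 0.12 over all transcripts tested, and with TMM factors it was -0.099, beside 0.016. It was -0.63 without brackish water library 1 and 0.73 without library 2, so its sign differed between the libraries.

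The 4 with both brackish water libraries above both seawater libraries, named after their values were seen, include comp249421_c0_seq5. Another was comp246010_c0_seq7, of 8408 bases, with 16.3 and 22.7 RPKM in fresh water, 10.9 and 7.23 RPKM in brackish water, and 5.38 and 2.57 RPKM in seawater. The transcript comp246755_c0_seq2, of 11168 bases, had 1.93 and 2.46 RPKM in fresh water, 1.86 and 1.48 RPKM in brackish water, and 0.440 and 0.584 RPKM in seawater. The last, comp249613_c0_seq7 of 8199 bases, had 5.63 and 7.83 RPKM in fresh water, 4.77 and 1.10 RPKM in brackish water, and 0.894 and 0.994 RPKM in seawater. In all 4, both fresh water libraries were higher again than both brackish water libraries.

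DESeq2 on the recovered reads called 5 long transcripts in brackish water against seawater, 4 higher and 1 lower, against 13.7% of all transcripts tested. The one with the lowest adjusted p, comp246005_c0_seq4 of 9236 bases, rose by 1.23 on the log2 scale (DESeq2 adjusted p = 0.00277). Its levels were 7.94 and 10.4 RPKM in fresh water, 11.3 and 2.49 RPKM in brackish water, and 1.73 and 2.67 RPKM in seawater. On the RPKM scale its brackish water library 2 lay between the seawater libraries. The 1 that fell, comp249960_c0_seq2 of 16401 bases, had a log2 fold change of -1.18 (DESeq2 adjusted p = 0.0467). It had 6.55 and 5.86 RPKM in fresh water, 6.10 and 1.66 RPKM in brackish water, and 6.56 and 7.06 RPKM in seawater. On the RPKM scale brackish water library 2 alone was well below the rest. DESeq2 rescales the libraries, so these RPKM values do not show which library its call rests on. It also called the transcript lower in fresh water than in seawater (log2 fold change -1.34, DESeq2 adjusted p = 0.0126).

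Leaving out brackish water library 2 gave 19 calls in limma, all higher in brackish water, against 21.3% of all transcripts tested. Without library 1 there were 0. In the authors' deposited table for brackish water and seawater, 5 of the 297 had a p-value under 0.05 (1.68%), 1 higher and 4 lower in brackish water. Of all transcripts tested, 1.90% had one in the authors' deposited table, 76 higher and 417 lower, so the share and the direction of the long transcripts were near those of the rest.

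Fresh water against brackish water gave no call among the 258 by limma and 2 at an unadjusted p under 0.05. Over all transcripts tested, 0.27% were called and 5.66% had an unadjusted p under 0.05. Brackish water library 2 was below both fresh water libraries for 289 of the 297 (97.3%), against 88.8% of all transcripts tested. Library 1 was above both fresh water libraries for 77 (25.9%), between them for 97 (32.7%) and below both for 123 (41.4%), so it had no common side. Over all transcripts tested these shares were 31.6%, 30.03% and 38.3%, so library 1 had no common side there either. Both fresh water libraries were above both brackish water libraries for 120 (40.4%), against 35.2% of all transcripts tested.

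Between fresh and brackish water, the median log2 fold change was 0.73 over the 258, beside 0.70 over all transcripts tested, and with TMM factors it was 0.023, beside 0.0012. It was 1.45 without brackish water library 1 and 0.067 without library 2, so nearly all of it lay in library 2. The 1 long transcript with both fresh water libraries below both brackish water libraries, against 4.04% of all transcripts tested, was comp247046_c0_seq1. DESeq2 called this 1 long transcript, with a log2 fold change of -3.67 (adjusted p = 0.000429), against 1.64% of all transcripts tested. Without brackish water library 1, limma called 173 of the 258, all higher in fresh water, against 53.7% of all transcripts tested, and without library 2 it called 0.

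**Figure D4:**
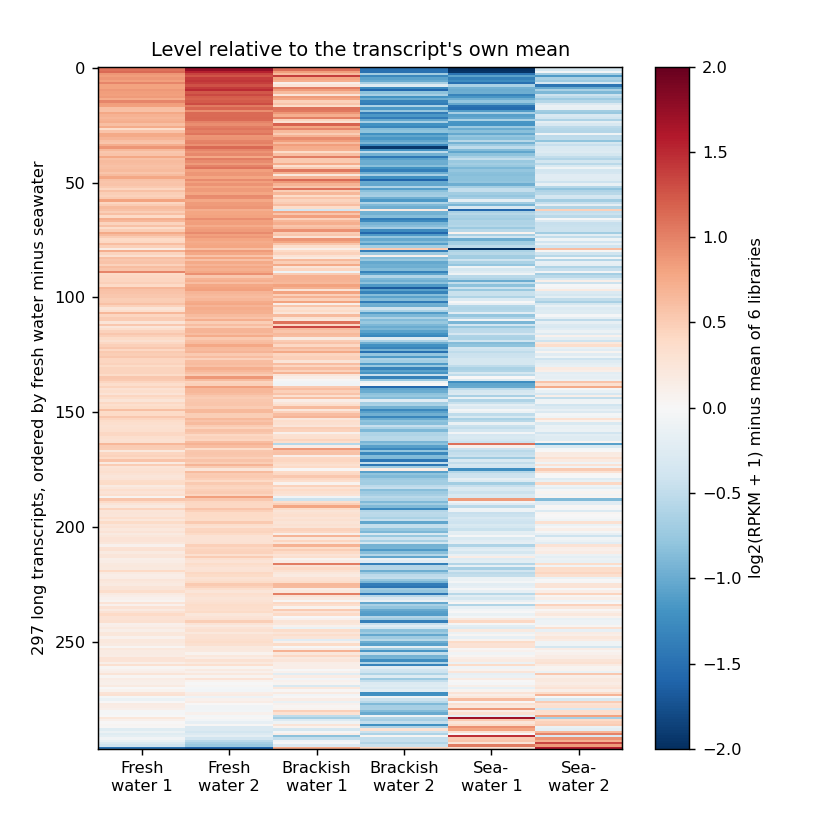
Level of each of the 297 long transcripts (rows, ordered by fresh water minus seawater) in each library (columns), as log2(RPKM + 1) minus the transcript's own mean over the 6 libraries. Fresh water libraries and brackish water library 1 are mostly red (above the mean), and brackish water library 2 is mostly blue, the lowest library for 242 of the 297. On TMM-scaled values the median difference between fresh water and seawater is near 0 (-0.051).

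Across libraries the highest value of a long transcript lay in fresh water library 2 for 181 of the 297, in brackish water library 1 for 65, in seawater library 2 for 27, in seawater library 1 for 16 and in fresh water library 1 for 8. The lowest lay in brackish water library 2 for 242 and in seawater library 1 for 39. The correlation of log2(RPKM + 1) across the 258 long transcripts, which share libraries and are not independent replicates, was 0.987 (Pearson's r) between the fresh water libraries, 0.855 between the brackish water libraries and 0.896 between the seawater libraries. Brackish water library 1 correlated with the fresh water libraries at r = 0.955 and 0.950, and with the seawater libraries at r = 0.786 and 0.881. Library 2 correlated with the fresh water libraries at r = 0.881 and 0.838, and with the seawater libraries at r = 0.880 and 0.937. Over all transcripts tested the replicate pairs had r of 0.942, 0.722 and 0.819 in the same order of waters.

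The range over the 6 libraries, as the difference between the highest and lowest log2(RPKM + 1), was largest for comp248040_c0_seq2, of 9256 bases, at 3.87. It had 45.2 and 72.0 RPKM in fresh water, 45.9 and 6.67 RPKM in brackish water, and 4.0 and 16.0 RPKM in seawater. Brackish water library 1 lay within fresh water and library 2 within seawater, and fresh water was apart from seawater. The third largest range was 3.50, in comp249892_c0_seq2 of 8358 bases. It stood at 25.0 and 33.5 RPKM in fresh water, 20.1 and 3.20 RPKM in brackish water, and 2.04 and 10.4 RPKM in seawater. Its brackish water library 1 lay just below fresh water and its library 2 within seawater. The second largest range, 3.53, was that of comp249421_c0_seq5.

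Among the 258, the smallest range was 0.52, in comp249245_c1_seq1 of 8324 bases. It had 1.84 and 1.60 RPKM in fresh water, 1.04 and 1.12 RPKM in brackish water, and 1.72 and 1.92 RPKM in seawater. Fresh water and seawater overlapped, with brackish water below both. Next, at 0.65, comp249655_c1_seq14 of 12335 bases had 4.92 and 4.69 RPKM in fresh water, 4.69 and 3.03 RPKM in brackish water, and 5.34 and 3.95 RPKM in seawater. Its seawater libraries spanned fresh water. The third, comp249622_c0_seq31 of 8639 bases, had 1.29 and 1.56 RPKM in fresh water, 1.22 and 0.946 RPKM in brackish water, and 1.75 and 0.741 RPKM in seawater. It held 7.98% of the reads of a component with 17 forms.

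Some long transcripts differed widely between replicates of 1 water, and 4 such extremes are named after their values were seen. In seawater, comp250088_c0_seq6 of 13465 bases had 7.46 RPKM in library 1 and 0.634 RPKM in library 2, and comp244455_c0_seq3 of 8767 bases had 0.145 and 1.24 RPKM. In brackish water, comp248717_c0_seq2 of 8102 bases had 4.67 and 0.122 RPKM, and comp249287_c0_seq7 of 8698 bases had 0.438 and 1.59 RPKM. These are the lowest and highest ratios in seawater and in brackish water. Over the 297 the gap went mostly one way. Library 2 was the higher for 10 in brackish water (3.37%), 233 in seawater (78.5%) and 255 in fresh water (85.9%). Over all transcripts tested these shares were 10.5%, 65.1% and 71.3%, so the gap went the same way there. The median gap between replicates of the 258, in log2(RPKM + 1), was 0.20 in fresh water, 1.37 in brackish water and 0.39 in seawater, beside 0.30, 1.40 and 0.42 over all transcripts tested.

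The median log2 fold change between fresh water and seawater was lower in the longest of the 297 than in the others, a description with no test. It is a signed value on log2(RPKM + 1) without TMM factors, which moved the median of the 258 tested to -0.051. The median log2 fold change was 0.79 for the 114 of 8000 to 9000 bases, 0.77 for the 69 up to 10000 bases, 0.83 for the 62 up to 12000 bases, 0.46 for the 37 up to 15000 bases and 0.34 for the 15 above that. It was positive for 32 of the 37 and for 9 of the 15. The 15 longest had a median of 4.84 and 4.83 RPKM in fresh water, 5.05 and 1.29 RPKM in brackish water, and 4.61 and 3.22 RPKM in seawater. Spearman's rho across the 297 was -0.17 between length and this log2 fold change and 0.06 between length and mean level, given as a description, since the transcripts share their libraries. The class above 15000 bases holds only 15 transcripts, so its value rests on few.

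By level, the median log2 fold change between fresh water and seawater was 0.82 for the long transcripts of 1 to 3 RPKM, 0.86 for those of 3 to 10 RPKM, 0.56 for those of 10 to 30 RPKM and 0.82 for the 8 of at least 30 RPKM. In the same classes all transcripts tested had 0.94, 1.01, 0.76 and 0.01. The gap at the top class rests on 8 long transcripts and was not tested.

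Over all transcripts tested, of every length and with all forms kept, the share called in fresh water against seawater was 7.13% under 500 bases, 5.56% from 500 to under 1000 bases, 3.31% from there to under 2000, 1.20% to under 4000, 0.681% to under 8000 and 0.212% at 8000 bases or more, where it was 1 of 471. The share called was lower in each longer class. The SD of the log2 fold change over transcripts was 1.33, 1.36, 1.17, 0.96, 0.78 and 0.61 in these classes. With the fresh water and seawater libraries alone, the shares called were 42.0%, 45.8%, 39.8%, 36.6%, 33.9% and 30.8%, so the share called in the longest class was again the lowest. What sets the difference between length classes was not tested.

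**Figure D5:**
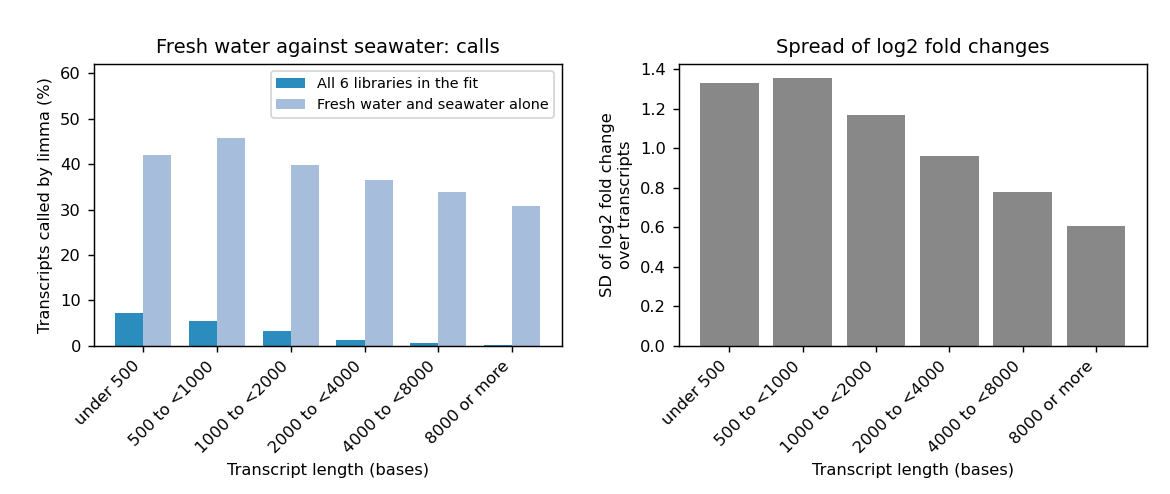
Left, percent of tested transcripts called by limma in fresh water against seawater by length class (bases), with all 6 libraries in the fit (dark) and with fresh water and seawater libraries alone (pale). Right, SD over transcripts of the log2 fold change in the same classes, 1.33 under 500 bases and 0.61 at 8000 bases or more.

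Just inside the length limit, comp241829_c0_seq22 of 8008 bases had 0.957 and 0.899 RPKM in fresh water, 0.820 and 1.87 RPKM in brackish water, and 3.0 and 1.03 RPKM in seawater. The shortest of the 297, comp246310_c1_seq14 of 8003 bases, had 6.20 and 8.40 RPKM in fresh water, 8.57 and 1.5 RPKM in brackish water, and 2.11 and 4.39 RPKM in seawater. Just outside, comp248390_c0_seq3 of 7991 bases had 9.78 and 16.3 RPKM in fresh water, 9.21 and 1.14 RPKM in brackish water, and 0.690 and 0.491 RPKM in seawater. The other just outside, comp249986_c0_seq6 of 7991 bases, had 3.27 and 3.79 RPKM in fresh water, 2.44 and 0.598 RPKM in brackish water, and 0.447 and 0.423 RPKM in seawater. Both fresh water libraries were above both seawater libraries in comp246310_c1_seq14 and in both transcripts outside the limit, and below both in comp241829_c0_seq22.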

How the data were processed

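Gill mRNA libraries, 2 for each of fresh water, brackish water and seawater, were grouped by the labels. The authors deposited RPKM per library for each assembled transcript, per the file headers. They also deposited a mean read count (an estimated count) of each group, a log2 fold change of mean RPKM and an unadjusted p-value for the comparisons with seawater, per the file headers. The authors' assembler, aligner and counting tool, not given in the sources used here, could not be checked.

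Reads were recovered as the whole multiples that RPKM times length gave, within 0.1 read. The 25901 transcripts whose mean reached 1 RPKM were tested with limma-trend (limma 3.58.1, R 4.3.3) on log2(RPKM + 1), all 6 libraries in one fit, group as the only term and Benjamini-Hochberg adjustment over all transcripts tested, threshold 0.05. Alternatives were other pseudocounts, filters, scalings, designs and members, each library left out, and, on recovered reads, edgeR 4.0.16 and DESeq2 1.42.0. The scripts were tested on simulated data. Differences in read share were tested by exact permutation over libraries.

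Members and lists were chosen with earlier results of these data known. Transcripts were named by rule as the 5 longest, the 5 of highest mean, the 3 of largest and the 3 of smallest range, those nearest the length limit and at most 2 called in each direction, and others are said to be named afterwards.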

Additional observations from a re-analysis of the deposited data

How the results depend on the processing

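Long transcripts called in fresh water against seawater, 1 in the fit reported, numbered 0 in 7 limma or edgeR alternatives. At an unadjusted p under 0.05 these had 24 with no filter (8.08%, against 19.4% of all transcripts in that fit), 7 with a mean of at least 5 RPKM (7.07%, against 18.3%), 35 with TMM factors (13.6%, against 32.5%), 39 with quantile normalization (15.1%, against 28.7%), 5 with a 10000-base limit (5.10%, against 27.3%), 9 with the replicate block (3.49%, against 20.6%) and 44 with edgeR (14.8%, against 32.4%). There were 85 calls with fresh water and seawater alone and 29 with DESeq2. Leaving out 1 library gave 0 to 88 calls, with 0 without either fresh water or either seawater library. For brackish water against seawater DESeq2 gave 5, edgeR gave 0 (17 at an unadjusted p under 0.05, or 5.72%, against 19.8%), and leaving out 1 library gave 0 to 19. For fresh against brackish water DESeq2 gave 1, edgeR gave 0 (1 at an unadjusted p under 0.05, or 0.337%, against 7.17%), and leaving out 1 library gave 0 to 173. Correlations of replicate deviations over all transcripts tested were 0.266 for fresh water with seawater, -0.411 for fresh with brackish water and -0.457 for brackish water with seawater. Both negative values involve brackish water, whose libraries differed widely. Whether replicate numbers pair the libraries cannot be decided from them. The replicate block gave 0 calls among the long transcripts in each comparison.

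For fresh water against seawater the median log2 fold change changed sign to -0.051 with TMM factors, -0.10 with quantile normalization, -0.16 with edgeR and -0.13 with DESeq2, and that of fresh against brackish water to -0.024 with edgeR. These scalings set the bulk of transcripts equal between libraries. The median of brackish water against seawater was 0.036 in the fit reported. It was -0.099 with TMM factors, -0.195 with quantile normalization, -0.143 with edgeR and -0.172 with DESeq2. It was also -0.080 with a pseudocount of 0.1, -0.162 with a mean of at least 5 RPKM and -0.044 with the 10000-base limit. With a pseudocount of 5, no filter, a mean of at least 20 reads or all long forms, it was 0.032 to 0.062. The difference in read share between brackish water and seawater was -0.0509 percentage points with the 10000-base limit, and from -0.623 (without brackish water library 1) to 0.777 with 1 library left out, with -0.284 without seawater library 1. The cause was not tested. That between fresh water and seawater was positive in all 7 alternatives, at 0.569 to 1.29 with 1 library left out, 0.302 with the 10000-base limit, 1.43 with all long forms and 0.996 over the reads of tested transcripts. That between fresh and brackish water was 0.153 to 1.55 with 1 library left out. Median log2 fold changes with 1 library left out were 0.65 to 0.94 for fresh water against seawater, -0.63 to 0.73 for brackish water against seawater and 0.067 to 1.45 for fresh against brackish water. Depth in seawater library 1 gave the median long transcript 246 reads, and 2 libraries a group limit every comparison.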
